A study of Mus musculus with 9 samples.

Results

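The genes described here encode Ugt2b and Ugt3a sugar transferases of the mouse kidney, Ugt2b5, Ugt2b34, Ugt2b35, Ugt2b37, Ugt2b38, Ugt3a1 and Ugt3a2. These are 7 of the 19938 genes measured. They were taken by name from the probe sets of the array that carry exactly 1 gene symbol, and a gene with several such probe sets was to be represented by the one selected on the highest mean signal over the 9 arrays. Each of the 7 genes had 1 such probe set, so that the signal made no choice among them. Ugt2b1 and Ugt2b36 also had a probe set of their own but were not among the 7, and are given with the other UGT genes. The family was picked out with earlier results of these arrays known, the fall of Ugt2b38 among them, and the tests below are therefore no independent support for a change of the family. Whole kidneys of female wild type mice on a mixed FVB/C57BL6 background were compared at 96 weeks (5 mice) and at 14 weeks of age (4 mice), with 1 Affymetrix Mouse Gene ST array per mouse. The labels name no transgene and no treatment other than age, the methods state that mice were anaesthetized with xylocaine and ketamine, and they name 5 mice per age. Values are log2 expression values after the robust multi-array average (RMA), so that a difference of 1 stands for a 2-fold change, and a positive difference means higher at 96 weeks.

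UDP-glucuronosyltransferases sit in the membrane of the endoplasmic reticulum and move glucuronic acid from UDP-glucuronic acid onto steroids, bile acids, bilirubin, fatty acid derivatives and drugs. The conjugates are more soluble in water and leave the body in urine and bile, and next to the liver and the gut the proximal tubule of the kidney is a main site of this reaction. The enzymes of the Ugt2b group come from separate neighbouring genes, whereas the Ugt1a enzymes share their last exons. In humans UGT3A1 uses UDP-N-acetylglucosamine and UGT3A2 uses UDP-glucose or UDP-xylose in place of UDP-glucuronic acid.

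In the RefSeq annotation of GRCm38.p6 5 of the genes lie on chromosome 5, in the order Ugt2b34, Ugt2b1, Ugt2b35, Ugt2b36, Ugt2b5, Ugt2b37, Ugt2a3, Ugt2b38, with Ugt2b1, Ugt2b36 and Ugt2a3 as the UGT genes between them. Ugt2a1 and Ugt2a2 come after Ugt2b38 on chromosome 5, and Ugt3a1 and Ugt3a2 are neighbours on chromosome 15. An upstream sequence was found in RefSeq for 6 of the 7 genes. The 110 bases before the start of 4 of them are shown, 5′ to 3′ on the strand of the gene. They were chosen because the 3 genes with the lowest log2 fold changes share a stretch there. This stretch is absent upstream of Ugt2b34, the gene with a higher value at 96 weeks. It is also absent upstream of Ugt2b35 and of Ugt3a1, which was lower at 96 weeks. Capitals mark the 62 bases that are identical in Ugt2b38, Ugt2b37 and Ugt2b5, and in Ugt2b34 the hexamer TTTAAC.
Ugt2b38, chr5:87424204-87424313, minus strand: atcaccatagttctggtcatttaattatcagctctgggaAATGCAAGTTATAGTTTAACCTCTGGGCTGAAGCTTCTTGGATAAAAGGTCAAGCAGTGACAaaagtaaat
Ugt2b37, chr5:87254789-87254898, minus strand: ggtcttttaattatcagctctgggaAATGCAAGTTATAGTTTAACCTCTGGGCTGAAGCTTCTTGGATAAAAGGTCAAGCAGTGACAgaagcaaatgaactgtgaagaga
Ugt2b5, chr5:87140341-87140450, minus strand: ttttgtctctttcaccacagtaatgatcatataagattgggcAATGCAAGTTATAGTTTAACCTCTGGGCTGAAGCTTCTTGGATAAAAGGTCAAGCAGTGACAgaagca
Ugt2b34, chr5:86906938-86907047, minus strand: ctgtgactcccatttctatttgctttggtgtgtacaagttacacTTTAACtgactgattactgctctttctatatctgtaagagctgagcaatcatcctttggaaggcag

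The shared stretch runs over bases 71 to 10 before the start of Ugt2b38, 85 to 24 before Ugt2b37 and 68 to 7 before Ugt2b5. Searched on both strands, it was present in 3 of 32851 RefSeq promoter windows (0.00913%), those of the same 3 genes. Over the whole 250 bases upstream, a global alignment placed identical bases at 90% of the window for Ugt2b38 and Ugt2b37, 84.8% for Ugt2b38 and Ugt2b5, and 80% for Ugt2b37 and Ugt2b5. All other pairs of the 9 genes aligned were between 55.2% and 67.2%. Ugt2b36, the neighbour of Ugt2b5, shared an unbroken run of 24 bases with Ugt2b5 and with Ugt2b37. The hexamer TTTAAC, which lies within the shared stretch, occurred on either strand in 8.56% of all windows of the same length. It was found upstream of all 6 members with a window and of Ugt2b36, and not upstream of Ugt2b1 and Ugt2a3. For Ugt2b38, Ugt2b37 and Ugt2b5 this follows from the shared stretch, and windows of related genes are not independent. Enrichment of the hexamer was not tested. These are matches of letters and do not show binding of a factor.

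**Figure D1:**
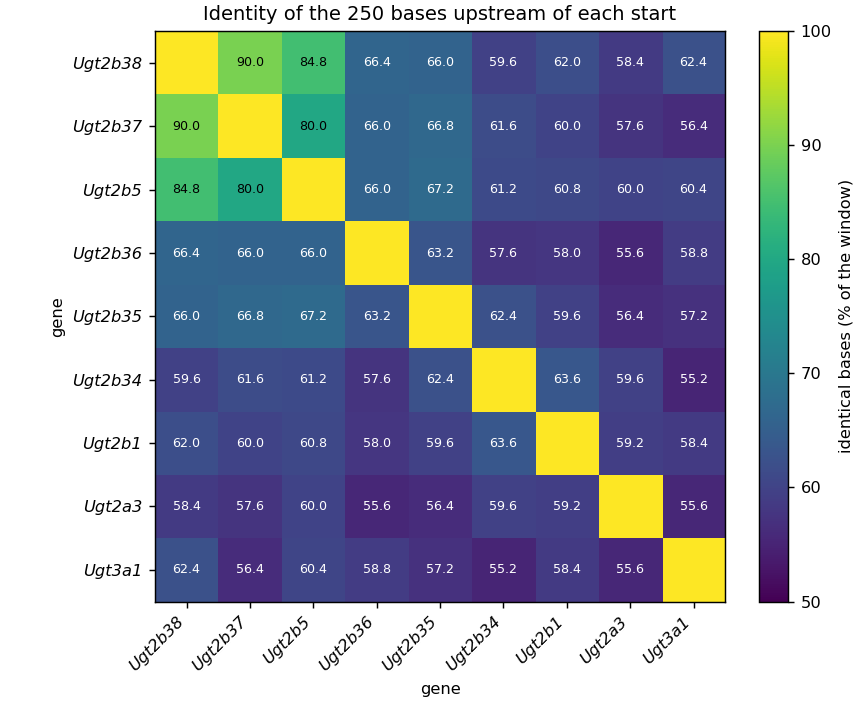
Identical bases, in percent of the window, between the 250 bases upstream of 9 UGT genes in a global alignment, with the same genes on both axes. Ugt2b38, Ugt2b37 and Ugt2b5 form a block of 80% to 90%, and no other pair exceeds 67.2%.

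At 96 weeks 3 of the 7 genes were lower (Ugt2b38, Ugt2b5 and Ugt3a1) and 1 was higher (Ugt2b34) by limma, with a threshold of 0.05 on the p-value adjusted over all genes. Over all genes tested, 2.4% were lower and 4.31% were higher by this rule. With the fold and p thresholds of the study's methods applied to limma, at least a 1.5-fold change with an unadjusted limma p under 0.05, 2 of the 7 were lower (Ugt2b38 and Ugt2b5) and Ugt2b34 was higher, against 0.321% lower and 1.28% higher of all genes. The ages did not overlap for the same 3 lower genes and for Ugt2b34, and of all genes 5.79% were lower and 7.49% higher without overlap. The median log2 fold change was -0.36 over the 7 genes and -0.026 over all genes. The count of lower genes fell to 1 when replicate 1, 2 or 3 at 14 weeks or replicate 5 at 96 weeks was left out, while Ugt2b34 stayed the 1 higher gene without any single array.

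**Figure D2:**
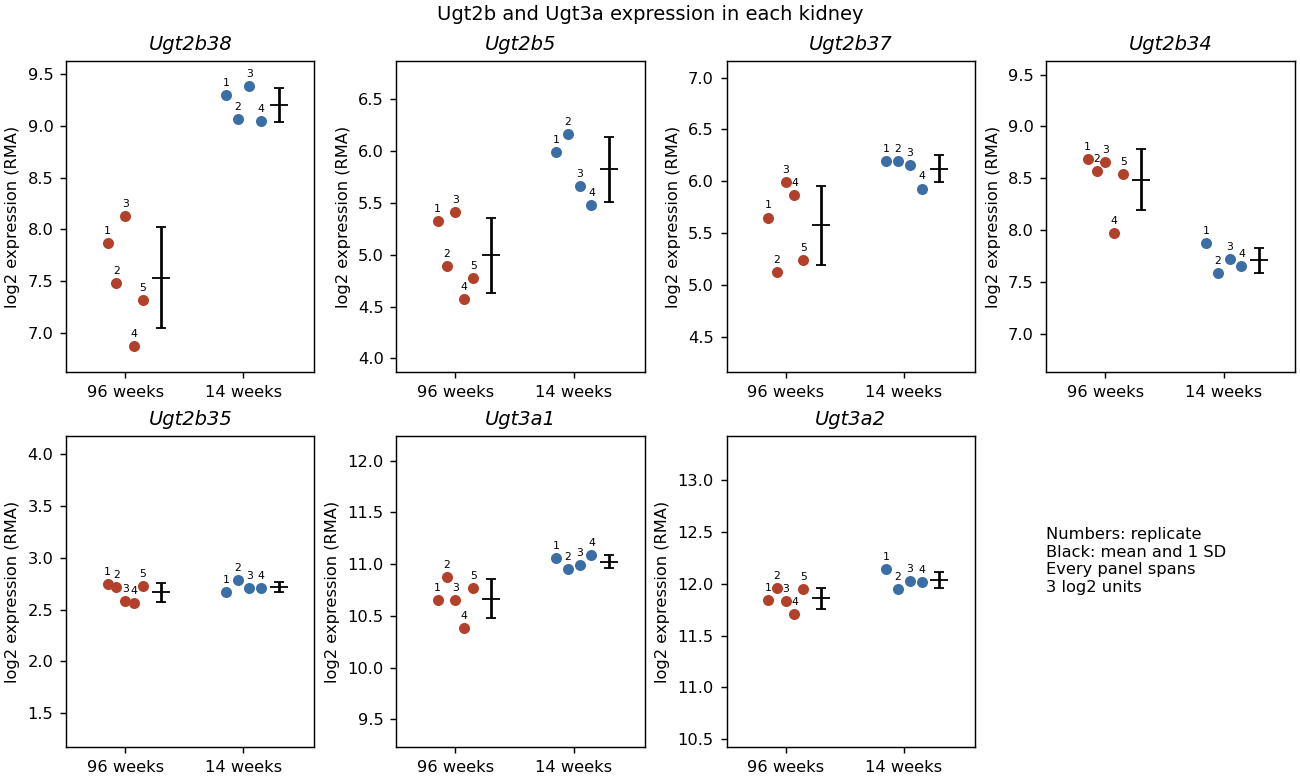
RMA log2 expression of the 7 genes in each kidney, 96 weeks on the left and 14 weeks on the right of every panel, with numbered replicates and the mean with 1 SD in black. Each panel spans 3 log2 units, and the 4 genes without overlap between the ages are Ugt2b38, Ugt2b5, Ugt2b34 and Ugt3a1.

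Ugt2b38 (probe set 10531073) is the last Ugt2b gene of the group on chromosome 5. Its log2 expression values were 7.87, 7.48, 8.13, 6.87 and 7.32 in the kidneys at 96 weeks, against 9.30, 9.07, 9.38 and 9.05 at 14 weeks. Every old kidney was below every young one, and the old kidneys spread over more than 1 log2 unit while the young ones lay close together. The mean was 7.54 ± 0.49 at 96 weeks (SD, n = 5) and 9.20 ± 0.16 at 14 weeks (SD, n = 4), which made the gene 3.17-fold lower at 96 weeks. The log2 fold change was -1.67 with a standard error of 0.22 and a 95% confidence interval from -2.15 to -1.18 (limma, adjusted p = 0.00476). Leaving out each array in turn gave -1.81 to -1.50, with adjusted p-values from limma between 0.00254 and 0.0179. In whole-kidney RNA fewer cells of a type and less RNA per cell cannot be told apart.

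Ugt2b5 (probe set 10531057), a neighbour of Ugt2b37 on the chromosome, gave 5.33, 4.89, 5.41, 4.57 and 4.78 at 96 weeks, against 5.99, 6.17, 5.66 and 5.48 at 14 weeks on the log2 scale. Again the lowest young kidney was above the highest old one, but only by a small margin. The log2 fold change of -0.83 (standard error 0.19, 95% confidence interval -1.26 to -0.40) corresponds to a 1.78-fold lower value at 96 weeks (limma, adjusted p = 0.0333). The mean of its probe set was at the 26.6th percentile of all genes, in a range where expression cannot be told from background in these files. The call was lost without replicate 1, 2 or 3 at 14 weeks or replicate 2, 4 or 5 at 96 weeks, with log2 fold changes between -0.89 and -0.72 and adjusted p-values from limma between 0.0527 and 0.0831.

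Ugt2b37 (probe set 10531061) had log2 values of 5.65, 5.12, 5.99, 5.87 and 5.24 at 96 weeks, against 6.20, 6.20, 6.16 and 5.93 at 14 weeks. Replicate 3 at 96 weeks was above the lowest young kidney, so that the ages overlapped. The log2 fold change was -0.55 (standard error 0.17, 95% confidence interval -0.93 to -0.17) and did not pass (limma, adjusted p = 0.081). Without replicate 3 at 96 weeks it was -0.65 and passed (limma, adjusted p = 0.0439). Without replicates 3 and 4 at 96 weeks together, an alternative chosen after seeing the data because these kidneys had the highest immune marker levels, it was -0.79 (limma, adjusted p = 0.0176).

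Whether the 3 genes with similar upstream sequence differed in the size of their change was tested on the difference between the genes within each kidney. Ugt2b38 minus Ugt2b5 was 2.54 ± 0.15 at 96 weeks and 3.37 ± 0.36 at 14 weeks (SD, n = 5 and 4), a shift of -0.83 (exact two-sided permutation test, p = 0.0159). Ugt2b38 minus Ugt2b37 was 1.96 ± 0.55 at 96 weeks and 3.08 ± 0.15 at 14 weeks, a shift of -1.12 (exact two-sided permutation test, p = 0.0159). In both comparisons the within-kidney differences did not overlap between the ages. Ugt2b5 minus Ugt2b37 shifted by -0.28, from which no difference could be told (exact two-sided permutation test, p = 0.254). With Ugt3a1 minus Ugt3a2 below, 4 such pairs were compared, all chosen after their values had been seen. A p of 0.0159 is the smallest that 5 against 4 arrays allow, and after Benjamini-Hochberg adjustment over the 4 pairs it was 0.0212. This adjustment covers only the pairs picked and does not correct for picking them by their values. Leaving out each array in turn gave shifts of -0.99 to -0.72 for Ugt2b38 minus Ugt2b5, -1.22 to -0.88 for Ugt2b38 minus Ugt2b37 and -0.21 to -0.14 for Ugt3a1 minus Ugt3a2 (exact two-sided permutation tests, p 0.0286 to 0.0357). Because the ages did not overlap in these pairs, each of these p-values had to be the smallest that the remaining arrays allow. They are no further support, and only the sizes of the shifts are informative. Levels of different probe sets are not comparable with each other, and only the shift between the ages is read here. The probe sets of Ugt2b5 and Ugt2b37 were at the 26.6th and the 35th percentile of all genes and that of Ugt2b38 was brighter, and the part of background signal in the smaller changes was not tested.

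Ugt2b34 (probe set 10531034), the first gene of the group, went the other way. Its log2 values were 8.68, 8.57, 8.66, 7.97 and 8.54 at 96 weeks, against 7.87, 7.58, 7.72 and 7.65 at 14 weeks. All old kidneys were above all young ones, with replicate 4 at 96 weeks just above the highest young kidney. The mean was 8.48 ± 0.29 at 96 weeks (SD, n = 5) and 7.71 ± 0.12 at 14 weeks (SD, n = 4), a 1.71-fold higher value at 96 weeks. The log2 fold change was 0.78 with a standard error of 0.14 and a 95% confidence interval from 0.47 to 1.08 (limma, adjusted p = 0.0132). Ugt2b35 (probe set 10522819), between them on the chromosome, lay between 2.56 and 2.75 at 96 weeks and between 2.67 and 2.79 at 14 weeks. This is the 0.396th percentile of all genes, and its log2 fold change of -0.05 did not pass (limma, adjusted p = 0.591) and took the opposite sign after cyclic loess between arrays.

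**Figure D3:**
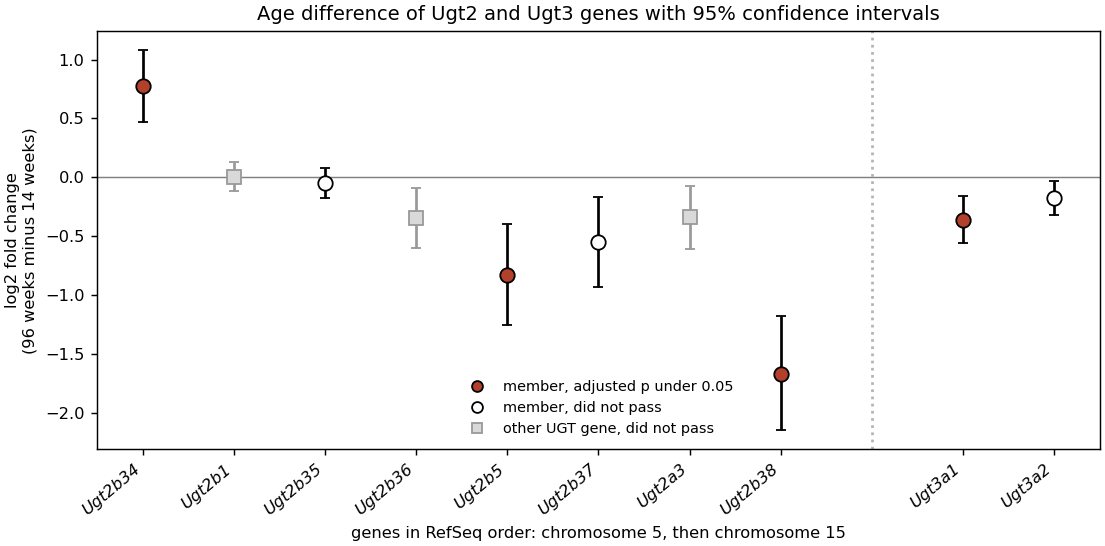
Log2 fold changes (96 weeks minus 14 weeks) with 95% confidence intervals for 10 Ugt2 and Ugt3 genes, in their order on chromosome 5 and then on chromosome 15. The first and the last of the chromosome 5 genes shown are Ugt2b34 at 0.78 and Ugt2b38 at -1.67, with Ugt2b5 and Ugt2b37 between them at -0.83 and -0.55. Ugt2a1 and Ugt2a2, which follow Ugt2b38, share a probe set and are not shown.

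Ugt3a1 (probe set 10423005) had log2 values of 10.65, 10.88, 10.65, 10.38 and 10.77 at 96 weeks, against 11.06, 10.95, 10.99 and 11.09 at 14 weeks. The ages did not overlap, although the highest old and the lowest young kidney were close. The log2 fold change was -0.36 with a standard error of 0.09, or 1.28-fold lower at 96 weeks (95% confidence interval -0.56 to -0.16; limma, adjusted p = 0.0444). The call was lost without any single one of the 14 week arrays and without replicate 1, 3 or 5 at 96 weeks (log2 fold changes -0.38 to -0.33, limma adjusted p 0.0588 to 0.115), and without replicates 3 and 4 at 96 weeks together (-0.25, limma adjusted p = 0.0691). Its neighbour Ugt3a2 (probe set 10423011) had 11.84, 11.96, 11.83, 11.71 and 11.95 at 96 weeks, against 12.14, 11.95, 12.03 and 12.02 at 14 weeks. Here the ages overlapped, and the log2 fold change of -0.18 (standard error 0.06) did not pass (limma, adjusted p = 0.115). Ugt3a1 minus Ugt3a2 was -1.19 ± 0.09 at 96 weeks and -1.01 ± 0.06 at 14 weeks (SD, n = 5 and 4), a shift of -0.18 (exact two-sided permutation test, p = 0.0159). A further pair of probe sets, 10423002 and 10427624, is annotated to both Ugt3a genes and cannot be assigned to either. Their log2 fold changes were -0.26 and -0.27, without overlap between the ages, and neither passed (limma, adjusted p = 0.05395 and 0.05004).

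The other UGT genes with a probe set of their own were few, 4 of the 15 listed, and none passed. Ugt2b36 had a log2 fold change of -0.35 (limma, adjusted p = 0.0951; -0.47 and 0.029 without replicate 4 at 14 weeks), Ugt2a3 of -0.34 (limma, adjusted p = 0.114) and Ugt2b1 of 0.00 (limma, adjusted p = 0.973). All 3 lie in the group on chromosome 5 and were dim, with means at or below the 5.21st percentile of all genes. Ugt8a, which makes galactosylceramide, a lipid of myelin and kidney membranes, was well expressed and had a log2 fold change of -0.09 (limma, adjusted p = 0.322). The Ugt1a enzymes, among them the bilirubin conjugating Ugt1a1, were read by 1 probe set that is annotated to 8 Ugt1a genes. It gave 9.44, 9.57, 9.44, 9.22 and 9.49 at 96 weeks, against 9.51, 9.44, 9.44 and 9.36 at 14 weeks. These values overlapped widely, and the 95% confidence interval of the log2 fold change ran from -0.16 to 0.15 (limma, adjusted p = 0.9672). The probe set shared by Ugt2a1 and Ugt2a2 had a log2 fold change of -0.10 (limma, adjusted p = 0.2744). Ugt2b genes are close in sequence, and cross-hybridization between their probe sets was not tested.

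The order of the old kidneys, from high to low, was replicate 3, 1, 2, 5 and 4 for both Ugt2b38 and Ugt2b5. Among the young kidneys the orders differed, with replicates 3, 1, 2 and 4 for Ugt2b38 and replicates 2, 1, 3 and 4 for Ugt2b5. Ugt2b37 departed from the order of the old kidneys, with replicate 4 above replicates 1, 5 and 2. By the root mean square difference over the 9 arrays, on the log2 scale and after each gene was centred on its own mean, Ugt2b5 was the 7th nearest of all genes to Ugt2b38 (0.475) and Ugt2b37 the 81st (0.67), whereas Ugt2b34 ranked 19635th (1.23). The ranks were not mutual, since Ugt2b38 was the 5449th nearest gene to Ugt2b5 and the 19646th nearest to Ugt2b37. All 9 arrays share the age groups, so that genes lower at 96 weeks tend to be near to Ugt2b38 by this measure.

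**Figure D4:**
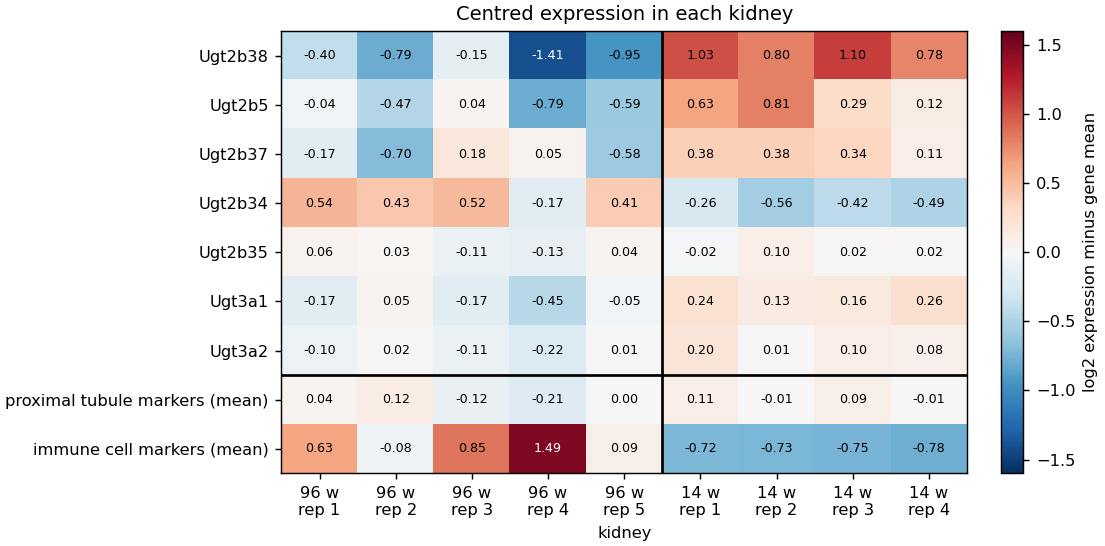
Log2 expression minus the mean over 9 kidneys for the 7 genes, with the means of the centred proximal tubule and immune cell markers below, for the 5 kidneys at 96 weeks on the left and the 4 at 14 weeks on the right. Replicate 4 at 96 weeks has the lowest Ugt2b38 value (-1.41), the lowest proximal tubule marker mean (-0.21) and the highest immune marker mean (1.49). Replicate 3 at 96 weeks is next in both marker means (-0.12 and 0.85) but has the highest Ugt2b38 value of the old kidneys (-0.15).

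The genes nearest to Ugt2b38 were Nr1d1 (0.382), which encodes the clock repressor Rev-erb alpha, the carboxylesterase Ces1e (0.386) and Slc22a22 (0.407), a prostaglandin transporter of the proximal tubule. Slc22a22 had log2 values of 9.14, 9.22, 9.19, 8.34 and 8.69 at 96 weeks, against 9.86, 9.87, 9.91 and 9.77 at 14 weeks. Replicates 4 and 5 at 96 weeks were its lowest kidneys, as they were for Ugt2b38. Nearest to Ugt2b5 were Cyp7b1 (0.194), an oxysterol and steroid hydroxylase, Slc22a22 (0.235) and Dbp (0.237), a transcription factor under the control of the circadian clock. Dbp ranged from 6.64 to 7.43 at 96 weeks and from 7.68 to 8.12 at 14 weeks. The time of day at which the kidneys were taken is not given in the sources used here. Nearest to Ugt2b37 were Gpr82 (0.17), an orphan receptor, Zfp36 (0.197), which promotes the decay of messenger RNAs, and Cd55 (0.2), an inhibitor of complement. Nearest to Ugt2b34 were Apob (0.134), the structural protein of lipoproteins, Tmem37 (0.147) and the monocarboxylate transporter family member Slc16a13 (0.176). Tmem37 was between 8.31 and 8.72 at 96 weeks and between 7.52 and 7.94 at 14 weeks, and like Ugt2b34 it had replicate 4 as its lowest old kidney. These neighbours were found by their likeness over the same arrays, and no test is given for them.

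The next list was drawn around UDP-glucuronic acid, the sugar donor of the Ugt2b enzymes, from its supply to the removal of glucuronic acid. It also held genes of wider sugar and nucleotide handling, so its count does not stand for UDP-glucuronic acid genes alone. By limma (adjusted p under 0.05) 5 of the 19 listed genes rose and none fell at 96 weeks, with a median log2 fold change of 0.06. Over all genes 4.31% were higher and 2.4% were lower by this rule. An unadjusted limma p under 0.05 was found for 8 of the 19, against 5692 of all 19938 genes. Slc35b1, a nucleotide transporter of the endoplasmic reticulum, had 10.04, 10.05, 9.87, 10.30 and 10.05 at 96 weeks, against 9.42, 9.38, 9.80 and 9.27 at 14 weeks. The ages did not overlap, and the log2 fold change was 0.59 (standard error 0.11; limma, adjusted p = 0.0171). Ugdh, which oxidises UDP-glucose to UDP-glucuronic acid, had 9.70, 9.83, 9.43, 9.63 and 9.74 at 96 weeks, against 9.38, 9.42, 9.34 and 9.32 at 14 weeks. It was higher in all old kidneys, by 0.30 on the log2 scale (standard error 0.08; limma, adjusted p = 0.0431). Entpd5, a nucleoside diphosphatase of the endoplasmic reticulum, was higher by 0.33 (limma, adjusted p = 0.0389), and the phosphoglucomutase Pgm2 by 0.19 (limma, adjusted p = 0.0314). The remaining gene that rose was Gusb, the beta-glucuronidase that removes glucuronic acid from conjugates (0.38; limma, adjusted p = 0.0459), named because it completes the count. The calls of Ugdh, Entpd5, Pgm2 and Gusb were each lost without any single one of the 14 week arrays and without 4 of the 5 single 96 week arrays (limma, adjusted p 0.0511 to 0.118), and that of Slc35b1 without replicate 4 at 14 weeks (limma, adjusted p = 0.0541). After repeated quantile normalization Ugdh, Entpd5, Pgm2 and Gusb also lost their calls (limma, adjusted p 0.0522 to 0.233), while Slc35b1 kept its call (limma, adjusted p = 0.0251).

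Sulfation is another route by which steroids and phenols are conjugated. Of 18 measured genes of this route 1 was higher and 1 was lower at 96 weeks, with a median log2 fold change of -0.02. Over all genes 4.31% were higher and 2.4% were lower by the same limma threshold. Only 10 of the 18 were above the 30th percentile of all genes. For the dimmer ones expression cannot be told from background, so the count and the median do not show that they were unchanged. Papss2, which makes the sulfate donor, had 11.15, 11.39, 11.05, 10.82 and 11.23 at 96 weeks, against 11.67, 11.67, 11.56 and 11.70 at 14 weeks. It fell by 0.52 on the log2 scale without overlap (standard error 0.10; limma, adjusted p = 0.0175). The protein tyrosine sulfotransferase Tpst1, which does not act on small molecules, rose by 0.50 (limma, adjusted p = 0.0265). Without replicate 4 at 14 weeks both calls were lost (limma, adjusted p = 0.0554 for Papss2 and 0.0812 for Tpst1), and that of Tpst1 also without replicate 1 or 3 at 14 weeks (limma, adjusted p = 0.0696 and 0.059).

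Of 16 measured genes of steroid metabolism, which make or remove possible substrates, 2 were higher and 2 were lower, with a median of 0.05. By the same limma threshold 4.31% of all genes were higher and 2.4% were lower. An unadjusted limma p under 0.05 was found for 8 of the 16, against 5692 of all 19938 genes. Cyp7b1 fell by 0.64 on the log2 scale (standard error 0.12; limma, adjusted p = 0.015). Akr1c18, a hydroxysteroid dehydrogenase that inactivates progesterone, fell by 0.73 (standard error 0.14; limma, adjusted p = 0.0171). Hsd11b1, which regenerates active glucocorticoid, rose by 0.52 (limma, adjusted p = 0.0149) and Hsd17b12, which also acts in fatty acid elongation, by 0.28 (limma, adjusted p = 0.0422). The call of Hsd17b12 was lost without any single array (limma, adjusted p 0.0528 to 0.113), and that of Akr1c18 without replicate 4 at 14 weeks (limma, adjusted p = 0.0553). The lowest log2 fold change of the list was that of Akr1c21, another hydroxysteroid dehydrogenase, singled out after its values were seen. It had 9.71, 9.90, 9.97, 7.33 and 9.15 at 96 weeks, against 10.81, 10.78, 11.04 and 10.97 at 14 weeks. The ages did not overlap, but replicate 4 was far below the other old kidneys and the difference of -1.69 did not pass (limma, adjusted p = 0.0561). Without replicate 4 at 96 weeks it was -1.22 and passed (limma, adjusted p = 0.00766). Among 18 measured transcription factors and receptors known to act on UGT genes none passed in limma. An unadjusted limma p under 0.05 was found for 4 of the 18, against 5692 of all 19938 genes. The factors and receptors with the smallest p were Esr1, an oestrogen receptor (-0.25; limma, adjusted p = 0.109), and Ppara, a receptor for fatty acids (-0.35; limma, adjusted p = 0.118).

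**Figure D5:**
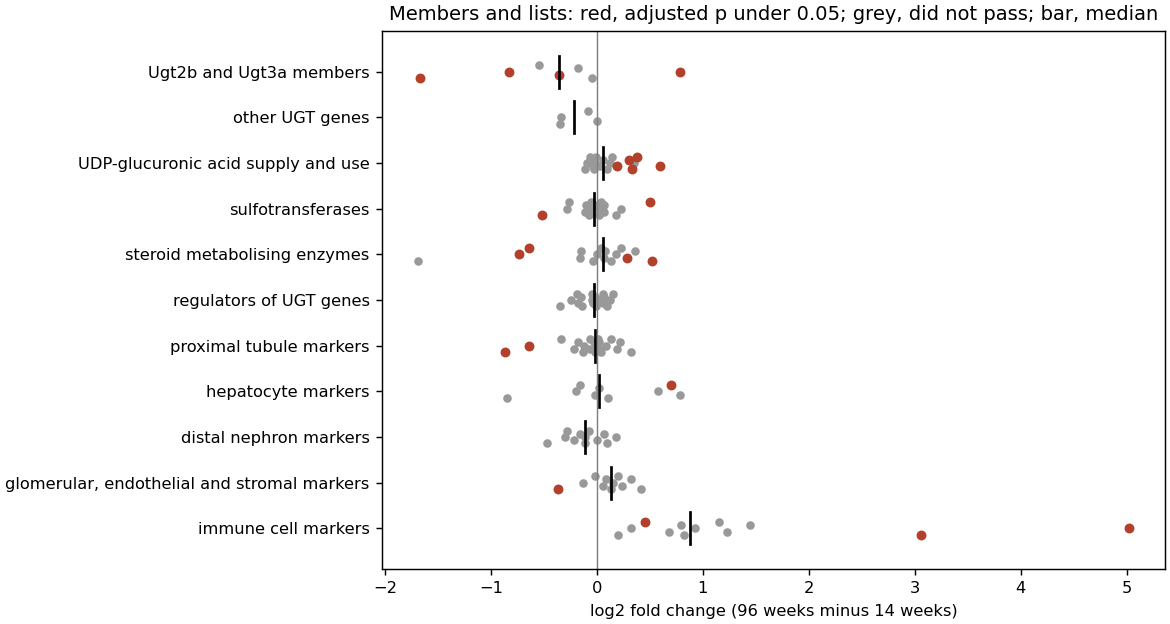
Log2 fold changes (96 weeks minus 14 weeks) of the 7 Ugt2b and Ugt3a genes and of the genes of 10 lists, with red points for genes whose adjusted limma p was below 0.05 and a black bar at the median of each list. The lists of enzymes, regulators and tubule markers have medians between -0.21 and 0.06, and the immune cell markers have a median of 0.88.

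Markers of the cell types in the tissue were set beside these values. All 21 measured proximal tubule markers were above the 30th percentile of all genes. By the same limma threshold 2 of these markers fell and none rose, against 2.4% and 4.31% of all genes, and the median was -0.02. The 2 were Slc7a13, an amino acid transporter of the straight proximal tubule (-0.87; limma, adjusted p = 0.0105), and Cyp7b1, which is also in the steroid list. The mean of the centred proximal tubule markers ranged from -0.21 to 0.12 at 96 weeks and from -0.01 to 0.11 at 14 weeks, and so overlapped between the ages. Immune cell markers moved with age. All 12 had values above 0 for the log2 fold change, with a median of 0.88, and 3 passed in limma (Jchain, Igha and Csf1r, with log2 fold changes of 5.02, 3.06 and 0.45 and adjusted p-values of 4.5e-05, 0.00201 and 0.0153). Their centred mean ranged from -0.08 to 1.49 at 96 weeks and from -0.78 to -0.72 at 14 weeks. Without the pair of old kidneys with the highest immune marker means, replicates 3 and 4, Ugt2b38 had a log2 fold change of -1.64 and Ugt2b34 of 0.89, and both passed in limma. Replicates 1, 2 and 5, with immune marker means of 0.63, -0.08 and 0.09, were still above every young kidney. The part of immune cells in the Ugt values was therefore not tested by leaving out replicates 3 and 4.

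Of the remaining lists, 1 of 9 hepatocyte markers passed, Fgb, a fibrinogen chain (0.70; limma, adjusted p = 0.0375), and the list median was 0.02. This call was lost without any single one of the 14 week arrays and without replicate 2 or 5 at 96 weeks (limma, adjusted p 0.0519 to 0.0933). None of 12 distal nephron markers passed in limma, with a median of -0.11. An unadjusted limma p under 0.05 was found for 3 of the 12, against 5692 of all 19938 genes. The distal markers with the smallest p were the potassium channel Kcnj1 (-0.29; limma, adjusted p = 0.0628) and the sodium channel subunit Scnn1g (-0.22; limma, adjusted p = 0.109). Of 11 glomerular, endothelial and stromal markers 1 was lower, Wt1, a transcription factor of podocytes (-0.37; limma, adjusted p = 0.0242), with a list median of 0.14. The Wt1 call was lost without replicate 1, 2 or 3 at 14 weeks (limma, adjusted p 0.0615 to 0.0658). The part of cell composition in the values of the Ugt genes was not tested.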

How the data were processed

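Whole-kidney RNA of 9 mice, 5 at 96 weeks and 4 at 14 weeks, was measured with 1 array per mouse. RMA and quantile normalization were run by the authors in Affymetrix Power Tools 1.12.0, per the labels, and log2 values of 35557 probe sets were deposited. The sources used here name neither detection calls nor scan dates, and precision is limited by the number of arrays. The 21789 probe sets with exactly 1 gene symbol gave 19938 genes, each by its brightest probe set; probe sets with several symbols (1621) or none (12147) were left out, except those shared between UGT genes, which were adjusted together with all genes.

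The fit of 96 weeks minus 14 weeks used lmFit and eBayes of limma 3.58.1 in R 4.3.3, with Benjamini-Hochberg adjustment over all genes. The limma script was tested on simulated data. Nothing in the labels says that the replicates are other than separate mice. The members and all lists were chosen with earlier results of these data known. Genes named were the members, all measured genes among the other UGT genes, from each further list up to 4 genes past an adjusted p under 0.05 or else the 2 of smallest p, and the 3 genes nearest to each member whose values spanned at least 1 on the log2 scale. Akr1c21, Gusb, the pairs of members and the alternative without replicates 3 and 4 at 96 weeks were chosen after the values were seen. List genes that shared or lacked a probe set were not analysed here. Permutation tests (scipy 1.17.1) were exact. Upstream sequences came from RefSeq (GRCm38.p6) and were aligned with Biopython 1.88.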

Additional observations from a re-analysis of the deposited data

Results flagged for a closer look

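Of 22 groups of values tested, the 2 ages for each of 11 UGT genes, 3 held a kidney that stood apart from the rest of its group by Dixon's test. Chance alone flags about 1 in 20 groups. Ugt2b34 in replicate 4 at 96 weeks was at 7.97 on the log2 scale, against 8.54 to 8.68 in the other old kidneys. This kidney also had the highest immune marker mean (1.49) and the lowest proximal tubule marker mean (-0.21) of all 9. Replicate 3 at 96 weeks, next in both marker means (0.85 and -0.12), had a Ugt2b34 value of 8.66. Without replicate 4 at 96 weeks the log2 fold change of Ugt2b34 was 0.90, the highest value that leaving out any single array gave. Ugt2b37 in replicate 4 at 14 weeks was at 5.93, against 6.16 to 6.20 in the other young kidneys. Ugt2b1 in replicate 3 at 14 weeks was at 3.32, against 3.34 in the other young kidneys, a gap of no more than 0.02 in a dim gene.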

How the results depend on the processing

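Ugt2b38 kept its direction and its call in all 17 alternatives, and Ugt2b34 in 16 of them, the exception being the methods' t-test (adjusted p = 0.0634). The methods' t-test left 1 member lower and 0 higher, in place of 3 and 1, and left 0 list genes lower and 3 higher, in place of 5 and 12, and 94 of all genes lower and 273 higher, in place of 479 and 860. At 1.5-fold and an unadjusted p under 0.05 it called 3 members (Ugt2b38, Ugt2b5 and Ugt2b34) and 257 of all genes, and 367 genes after Benjamini-Hochberg adjustment. A fit with the replicate block left 1 member lower, 2 list genes lower and 2 higher, and 89 of all genes lower and 279 higher. Same-numbered kidneys did not deviate together (correlations -0.037 to 0.076), so the numbers are taken as names only. Scaling changed the balance of calls: 860 higher and 479 lower in the deposited values, 484 higher and 505 lower after repeated quantile normalization (7 list genes higher), and 562 higher and 379 lower after cyclic loess. Leaving out genes below the 30th percentile raised the list genes lower to 8. Leaving out each array in turn gave 1 to 3 members lower and 1 higher (lowest 1, highest 1), 4 to 6 list genes lower and 4 to 11 higher, and 154 to 384 of all genes lower and 374 to 751 higher. The list genes higher and all genes lower dropped by over 1.5 times without any single array but replicate 3 at 96 weeks. Without replicates 3 and 4 at 96 weeks together 286 of all genes were lower. Ugt2b35 changed sign after cyclic loess (0.0074) and without those kidneys (0.02), and it passed in no setting. Ugt2b1, at 0.00, ranged from -0.03 to 0.04 when each array was left out, with the opposite sign (-0.0022 and -0.03) for replicate 3 at 14 weeks and replicate 1 at 96 weeks, and was at -0.01 with array weights and at -0.00012 when both old kidneys were left out. Ugt2b5 lost its call with cyclic loess (limma, adjusted p = 0.0508) and the replicate block (limma, adjusted p = 0.0635), Ugt3a1 with the block (limma, adjusted p = 0.103), while Ugt2b37 passed with array weights (limma, adjusted p = 0.0426) and Ugt3a2 after repeated quantile normalization (limma, adjusted p = 0.0475). Of the other genes named, Hsd17b12 and Gusb lost their calls in 14, Ugdh and Pgm2 in 12 and Entpd5 in 11 of the 17 alternatives. Without replicates 3 and 4 at 96 weeks, Ugt2b5 minus Ugt2b37 shifted by -0.04 (exact permutation test, p = 0.743), and the other 3 pair shifts had p = 0.0571, the smallest that 3 against 4 arrays allow. The causes were not tested.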
